A study of Homo sapiens with 40 samples.

Results

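NPR3, NRCAM, DRD1, FSTL4 and CPLX2 encode a natriuretic peptide receptor, a neuronal adhesion molecule, a dopamine receptor, a follistatin-like secreted protein and a regulator of vesicle fusion. These 5 genes were followed in RNA-seq of A549 cells with and without SETDB1. They are 5 of the 62486 rows of the gene count table and 5 of the 17767 genes with enough counts to be tested. Each was taken from the table by its Ensembl identifier, matched to its symbol. The genes had been chosen because their RNA was low in the SETDB1 knockout (KO) libraries of this same table, so their own fall is described here and not tested.

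A549 is an established human lung adenocarcinoma line that carries K-RAS G12S, an allele shared by control and KO cells. SETDB1 is a methyltransferase that places H3K9me3, a histone mark of repressed chromatin. The control group (CT) and the KO group each had 3 RNA-seq libraries of total RNA, and the KO was made by CRISPR/Cas9 disruption with a guide carried on the plasmid PX458. Whether the KO line is 1 clone or a pool is not given in the sources used here, nor is what the control cells received, and nothing says that the 3 libraries of a genotype came from separate cultures. The p-values therefore measure the spread between these libraries, which may be technical. The series holds 40 samples in all, and its ChIP-seq and Hi-C samples are not analysed here, because no gene annotation of their genome build (hg19) was at hand to place the 5 genes on them.

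Natriuretic peptides lower blood pressure through receptors that make cyclic GMP. NPR3 is the clearance receptor of that family: it binds and internalises the peptides and has no cyclase domain of its own. NRCAM belongs to the L1 family of immunoglobulin-type adhesion molecules, which bind ankyrins inside the cell and contactins and neuropilins outside it, and which guide axons. DRD1 is the D1 dopamine receptor, which couples to stimulatory G proteins and raises cyclic AMP. FSTL4 is a little-studied secreted protein related to follistatin, the antagonist of activins, and to SPARC, a matrix protein. CPLX2, complexin 2, binds the assembled SNARE complex and controls the release of neurotransmitter vesicles. The functions of NRCAM, DRD1 and CPLX2 are best known from neurons.

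Because the 5 genes shared a direction of change, the letters upstream of each were set side by side. RefSeq (GRCh38.p14) lists 8 start sites for the 5 genes, 2 of NPR3, 3 of NRCAM and 1 of each of the others. The following are the 250 bases directly upstream of 1 start per gene, 5′ to 3′ on the strand of the gene, with GC boxes and the cAMP response element in capitals. Where a gene has several starts, the start with the highest observed-to-expected CpG ratio is shown, a choice made after the values were seen.
NPR3: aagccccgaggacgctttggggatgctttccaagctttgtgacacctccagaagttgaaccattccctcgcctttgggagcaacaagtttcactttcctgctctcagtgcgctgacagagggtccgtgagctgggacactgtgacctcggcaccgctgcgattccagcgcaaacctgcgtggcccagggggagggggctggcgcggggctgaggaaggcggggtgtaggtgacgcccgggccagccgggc
NRCAM: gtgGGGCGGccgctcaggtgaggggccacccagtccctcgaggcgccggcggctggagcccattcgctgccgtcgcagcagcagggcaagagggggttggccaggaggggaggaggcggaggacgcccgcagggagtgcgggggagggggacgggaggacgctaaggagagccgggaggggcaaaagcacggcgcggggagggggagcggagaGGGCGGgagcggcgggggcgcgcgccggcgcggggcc
DRD1: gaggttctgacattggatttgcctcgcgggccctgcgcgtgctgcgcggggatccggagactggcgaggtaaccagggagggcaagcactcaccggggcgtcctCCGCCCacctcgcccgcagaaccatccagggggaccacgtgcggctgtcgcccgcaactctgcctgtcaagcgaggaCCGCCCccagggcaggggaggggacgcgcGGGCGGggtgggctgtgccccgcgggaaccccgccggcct
FSTL4: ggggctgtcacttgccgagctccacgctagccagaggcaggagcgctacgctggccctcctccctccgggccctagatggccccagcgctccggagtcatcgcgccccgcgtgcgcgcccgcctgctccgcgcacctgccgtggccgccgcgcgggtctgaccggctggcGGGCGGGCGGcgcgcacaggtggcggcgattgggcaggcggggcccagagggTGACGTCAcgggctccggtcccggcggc
CPLX2: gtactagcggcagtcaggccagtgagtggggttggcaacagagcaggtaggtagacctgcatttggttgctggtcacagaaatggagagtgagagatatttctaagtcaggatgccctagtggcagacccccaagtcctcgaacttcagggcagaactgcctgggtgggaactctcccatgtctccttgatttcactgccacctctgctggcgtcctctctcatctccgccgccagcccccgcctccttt

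The NPR3 stretch lies at chr5:32710399-32710648 (plus strand), that of NRCAM at chr7:108456437-108456686 (minus strand) and that of DRD1 at chr5:175444183-175444432 (minus strand). The FSTL4 stretch lies at chr5:133612542-133612791 (minus strand) and the CPLX2 stretch at chr5:175796283-175796532 (plus strand). These are GRCh38.p14 positions and cannot be laid over the deposited hg19 data. The upstream stretches were of unlike kinds. NRCAM, DRD1 and FSTL4 had a GC content of 78.4%, 73.2% and 78.0% with 29, 27 and 35 CpG dinucleotides, above the median of 58.0% GC and 11 CpG over 35116 RefSeq stretches of the same length from 27305 genes. CPLX2 was at 56.8% GC with 6 CpG and an observed-to-expected CpG ratio of 0.298, below the median ratio of 0.558. The NPR3 stretch shown had 64.0% GC and 16 CpG, while the other NPR3 start had 45.6% GC and 0 CpG. Both other NRCAM starts were also poor in CpG, with 1 and 2.

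The searched motifs, given by their letters below, were read on both strands. The GC box (GGGCGG), an Sp1-type sequence, occurred in the NRCAM, DRD1 and FSTL4 stretches shown, with 2, 3 and 2 copies, and in 42.6% of all stretches. The 2 copies in FSTL4 overlap by 2 bases. The cAMP response element (TGACGTCA), the letters bound by CREB, occurred at position -28 of FSTL4 and at position -47 of the NRCAM start with 2 CpG, which is not shown, and in 1.65% of all stretches. Positions count back from the RefSeq start. CCAAT was found in DRD1, in FSTL4, at 1 NPR3 start and at 2 NRCAM starts that are not shown, and in 32% of all stretches. The E-box CACGTG was found in DRD1 alone of the 8 stretches (6.34% of all), and the AP-1 letters TGANTCA at 1 NRCAM start that is not shown (6.57% of all). TATAAA was found in none of the 8 stretches and in 10.7% of all. A match is a description of letters and says nothing on binding in A549.

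The RNA-seq libraries held from 18065062 to 48364919 counts, and 1 mitochondrial ribosomal gene, MT-RNR2, took 18.7% to 21.5% of them. SETDB1 itself (ENSG00000143379) was at 37.5, 39.6 and 38.8 CPM in CT libraries 1 to 3 and at 23.4, 21.2 and 21.1 CPM in KO libraries 1 to 3, where CPM is the count relative to the library size, scaled by TMM (trimmed mean of M-values). Its log2 fold change, KO minus CT throughout, was -0.82 (SE 0.0598, edgeR adjusted p 1.7e-12), so 56.8% of the control level remained. A count over the whole gene does not read the disruption of the coding sequence. Keratin and other epithelial markers were present as the A549 label asks: 6 of 9 reached 1 CPM, and their summed level was 4460 to 4883 CPM in CT and 10820 to 11620 CPM in KO libraries. NKX2-1, a lung lineage factor, had 0 counts in CT.

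The level of NPR3 (ENSG00000113389, chromosome 5) was 79.4, 80.5 and 78.6 CPM in CT libraries 1 to 3 and 0.786, 0.852 and 0.847 CPM in KO libraries 1 to 3. The genotypes were far apart, and within each the libraries were close together. The means were 79.5 ± 0.979 CPM (SD, n = 3) and 0.828 ± 0.0369 CPM (SD, n = 3), so that 1.04% of the control level of the clearance receptor remained. The fitted log2 fold change was -6.57 (SE 0.088), a 94.7-fold lower level. The KO libraries still held 18, 42 and 19 NPR3 counts, against 1869, 1459 and 2288 in CT.

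The level of DRD1 (ENSG00000184845, chromosome 5) was 14.7, 14.2 and 13.8 CPM in CT and 0.218, 0.142 and 0.223 CPM in KO libraries 1 to 3. In KO this rests on 5, 7 and 5 counts, so the KO level of the dopamine receptor is known only roughly. Its means were 14.2 ± 0.445 and 0.194 ± 0.0454 CPM (SD, n = 3), its remaining level 1.37%, and its log2 fold change -6.27 (SE 0.17).

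The level of NRCAM (ENSG00000091129, chromosome 7) was 305.5, 287.7 and 294.8 CPM in CT and 3.71, 3.53 and 2.72 CPM in KO libraries 1 to 3. The mean of this adhesion gene went from 296.0 ± 8.94 to 3.32 ± 0.529 CPM (SD, n = 3), leaving 1.12%. The log2 fold change was -6.45 (SE 0.0694). KO library 3 was the lowest of the 3, but NRCAM was still read by 85, 174 and 61 counts, so low-level RNA was measured in every KO library.

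The level of FSTL4 (ENSG00000053108, chromosome 5) was 15.4, 17.3 and 15.7 CPM in CT and 0.175, 0.446 and 0.0891 CPM in KO libraries 1 to 3. KO library 2 stood above the other two, with 22 counts against 4 and 2. Its exact 95% Poisson interval, which covers counting error only, was 0.280 to 0.676 CPM. That interval overlaps those of KO library 1 (0.0476 to 0.447 CPM) and KO library 3 (0.0108 to 0.322 CPM). Overlap of separate intervals does not show that counting error covers the difference, which was not tested. The means were 16.1 ± 1.01 and 0.237 ± 0.187 CPM (SD, n = 3), leaving 1.47%, and the log2 fold change was -5.75 (SE 0.181). Without KO library 2 it was -6.86, a deeper fall than with it, so the size of the fall of FSTL4 depends on that library.

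The level of CPLX2 (ENSG00000145920, chromosome 5) was 1469, 1498 and 1486 CPM in CT and 140.8, 149.6 and 160.4 CPM in KO libraries 1 to 3. The complexin gene was lower in every KO library, yet it was not silent there, with 3225, 7372 and 3600 counts. Its mean went from 1484 ± 14.3 to 150.3 ± 9.83 CPM (SD, n = 3), leaving 10.1%, and the log2 fold change was -3.30 (SE 0.0477). A description of the genes as silenced therefore does not hold for CPLX2, and for the other 4 it stands for levels of 1.04% to 1.47% rather than for 0. CPM is not divided by gene length, so levels are not compared between the genes.

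**Figure D1:**
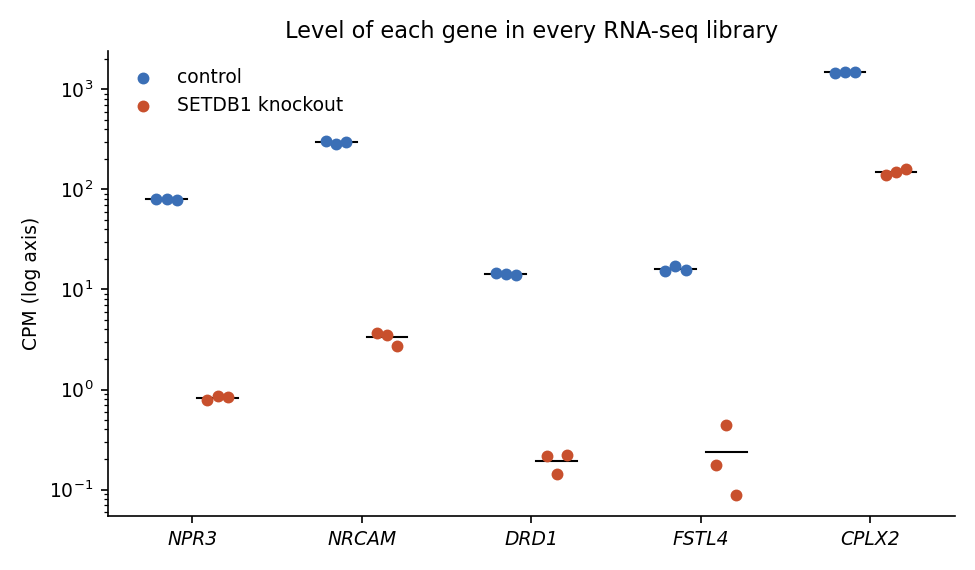
Level of the 5 genes in CPM (log axis) in the 3 control (blue) and 3 SETDB1 KO (orange) libraries, libraries 1 to 3 from left to right. Points are libraries and lines are group means. The KO points lie below the CT points for each gene, and those of CPLX2 stay at 140.8 CPM or above.

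In all 5 genes the KO libraries lay below the CT libraries, as they did in 31.7% of the genes tested. All 5 were lower at an adjusted p under 0.05 (edgeR), as were 30.0% of the genes tested, and 62.8% changed in either direction. Nothing is read from these counts because the genes were chosen on this contrast. Ordered by size of fall among the genes tested, NPR3 was in place 7, NRCAM 8, DRD1 9, FSTL4 11 and CPLX2 47. Only 0.101% of the genes tested were at least 32-fold lower, a bound that NPR3, NRCAM, DRD1 and FSTL4 passed. At least 8-fold lower were 0.371%, or 66 genes, with CPLX2 among them at 9.88-fold.

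The remaining share of the control level split the genes into 4 that were alike and CPLX2. It ranged over the KO libraries from 0.988% to 1.07% for NPR3, 0.918% to 1.25% for NRCAM, 0.998% to 1.57% for DRD1 and 0.553% to 2.77% for FSTL4. These ranges overlap. In the fit FSTL4 fell least of the 4, but its place depends on KO library 2. Without that library its log2 fold change was -6.86, against -6.595 for NPR3, -6.519 for NRCAM and -5.975 for DRD1. CPLX2 was at 9.48% to 10.8%, apart from all of them. The difference in log2 fold change was -0.11 (SE 0.112) between NPR3 and NRCAM, -0.30 (SE 0.192) between NPR3 and DRD1, -0.82 (SE 0.201) between NPR3 and FSTL4 and -3.26 (SE 0.1) between NPR3 and CPLX2. The spread between libraries was small in CT, where the coefficient of variation was 0.965% for CPLX2 to 6.27% for FSTL4. In KO it was 4.45% for NPR3, 6.54% for CPLX2, 15.9% for NRCAM, 23.4% for DRD1 and 78.8% for FSTL4. The RNA is from bulk cells, so fewer cells with a transcript and less transcript per cell cannot be told apart.

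**Figure D2:**
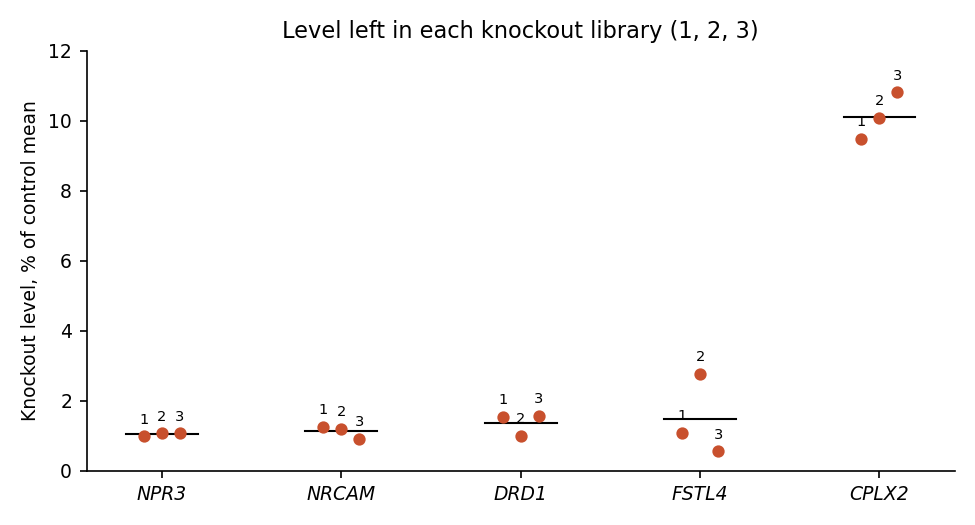
KO level of each gene as a percent of its control mean, for KO libraries 1, 2 and 3 (numbered points), with the line at the ratio of the means. NPR3, NRCAM, DRD1 and FSTL4 lie at 0.553% to 2.77% and CPLX2 at 9.48% to 10.8%.

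The partners of each gene were then examined in lists of related genes, which leave out the 5 genes themselves. Of the peptide and cyclic GMP genes around NPR3, 11 of 19 were tested, of which 5 rose (45.5%, against 32.8% of all genes tested) and 4 fell (36.4%, against 30.0%). The median log2 fold change was 0.09, against 0.0038 over all genes tested. The guanylyl cyclase receptor NPR1, through which the peptides signal, rose from 1.18 ± 0.233 to 6.41 ± 0.430 CPM (SD, n = 3), with log2 fold change 2.45 (SE 0.151, edgeR adjusted p 4.4e-14). It was at 0.977, 1.44 and 1.13 CPM in CT and 6.16, 6.17 and 6.91 CPM in KO libraries, so within the receptor family NPR1 and NPR3 moved in opposite directions. The C-type peptide receptor NPR2 was at 6.87 in CT and 5.74 CPM in KO (log2 fold change -0.24, edgeR adjusted p 0.039). That call was lost without each library in turn except CT library 3, and under DESeq2 (adjusted p 0.12), library size scaling and no filter on low counts, where the adjusted p was 0.054 to 0.18 over these 8 fits.

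Downstream of the cyclases, PDE5A and PDE9A, phosphodiesterases that break down cyclic GMP, rose by 2.04 (SE 0.0829, edgeR adjusted p 3.6e-18) and 1.34 on the log2 scale (SE 0.11, edgeR adjusted p 2e-11). PDE3A and PDE2A, phosphodiesterases of the same list, fell, with log2 fold changes of -0.54 (SE 0.0769, edgeR adjusted p 9.7e-07) and -0.845 (SE 0.296, edgeR adjusted p 0.015). GUCY1B1, a subunit of the soluble cyclase that answers nitric oxide, rose from 0.223 to 2.87 CPM (log2 fold change 3.70, SE 0.266). GUCY1A1, another subunit, had 0 counts over the CT and 2 over the KO libraries. PRKG1, a cyclic GMP-dependent kinase, fell from 1.41 to 0.255 CPM (log2 fold change -2.31, SE 0.293, edgeR adjusted p 9.7e-08). PRKG2, a kinase of the same kind, was at 3.11 in CT and 3.40 CPM in KO (log2 fold change 0.09, SE 0.135, edgeR adjusted p 0.56). The ligands were hardly read: NPPA had 10 counts over the CT and 8 over the KO libraries, NPPB 0 and 0, and NPPC 2 and 1. Without CT library 1 the number of genes of this list that fell was 2, as under DESeq2.

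Of the dopamine and cyclic AMP genes around DRD1, 21 of 28 were tested, of which 11 rose (52.4%) and 6 fell (28.6%), against 32.8% and 30.0% of all genes tested, with a median log2 fold change of 0.13. The other dopamine receptors were at or near 0 in both genotypes. DRD2 had 0 counts over the CT and 1 over the KO libraries, DRD3 and DRD5 had 0 in both, and DRD4 had 20 and 28, so of these receptor genes DRD1 alone had over 20 counts in CT, at 1005. Among the genes that couple the receptor to cyclic AMP, the adenylyl cyclase ADCY5 rose from 1.19, 0.883 and 0.996 CPM in CT to 36.2, 37.9 and 36.3 CPM in KO libraries. The fitted log2 fold change was 5.16 (SE 0.105, edgeR adjusted p 4.4e-25), with the genotypes far apart. The other adenylyl cyclases listed went in both directions. ADCY6 rose (log2 fold change 1.158, SE 0.0541), while ADCY3 fell from 67.45 to 38.62 CPM (log2 fold change -0.795, SE 0.0541, edgeR adjusted p 4e-13). ADCY7 fell slightly (-0.186, SE 0.0706, edgeR adjusted p 0.024) and ADCY9 did not pass (-0.073, SE 0.0535, edgeR adjusted p 0.24).

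The G-protein subunits moved differently from each other. GNAL, the olfactory-type stimulatory subunit that serves DRD1 in the striatum, fell from 12.7 to 4.89 CPM (log2 fold change -1.40, SE 0.0922, edgeR adjusted p 2.1e-13). GNAS, the general stimulatory subunit, was at 362.5 in CT and 396.5 CPM in KO, a rise of 0.13 on the log2 scale (SE 0.0405, edgeR adjusted p 0.0068). ARRB1, a beta-arrestin that desensitises receptors, rose by 1.97 on the log2 scale (SE 0.0556). ARRB2, the other beta-arrestin listed, fell from 106.7 to 76.2 CPM (log2 fold change -0.481, SE 0.0466, edgeR adjusted p 6.3e-10). PRKAR2B, a regulatory subunit of protein kinase A, fell from 14.5 to 5.32 CPM, with a log2 fold change of -1.47 (SE 0.0982). PRKAR1A, another such subunit, rose by 0.243 on the log2 scale (SE 0.0405). MAOB, which degrades dopamine, went from 0 counts in every CT library to 31, 89 and 46 counts in KO libraries.

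Of the L1 family and partner genes around NRCAM, 16 of 22 were tested, of which 10 rose (62.5%) and 4 fell (25.0%), against 32.8% and 30.0% of all genes tested, with a median log2 fold change of 0.40. L1CAM, the founding member of the family, rose from 5.80 to 12.6 CPM (log2 fold change 1.11, SE 0.09, edgeR adjusted p 1.7e-11), opposite to NRCAM. NFASC, of the same family, fell as NRCAM did, from 0.763 to 0.241 CPM (log2 fold change -1.62, SE 0.362, edgeR adjusted p 3.2e-04). CNTN1, a contactin that binds L1 family proteins on the cell surface, was at 300.1, 283.8 and 285.3 CPM in CT and 1355, 1273 and 1309 CPM in KO libraries. CNTN1 thus rose by 2.18 on the log2 scale (SE 0.0428, edgeR adjusted p 2.1e-25). ANK3, the ankyrin that anchors L1 family proteins at the axon initial segment, rose from 4.31 to 28.8 CPM (log2 fold change 2.73, SE 0.0825). SEMA3B, a secreted semaphorin, rose by 2.37 (SE 0.0736) and DLG3, a scaffold protein, by 1.71 (SE 0.0698) on the log2 scale. Besides NFASC, the genes of this list that fell were ANK2, NRP2 and SEMA3F. Their log2 fold changes were -0.67 (SE 0.099), -0.975 (SE 0.0433) and -1.227 (SE 0.163).

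Of the follistatin, SPARC and activin genes around FSTL4, 16 of 20 were tested, of which 8 rose (50%) and 7 fell (43.8%), against 32.8% and 30.0% of all genes tested, with a median log2 fold change of 0.17. This list held 2 genes at least 8-fold lower, FST and SPOCK1. FST, follistatin itself, was at 28.4, 28.2 and 25.3 CPM in CT and 0.524, 0.690 and 0.980 CPM in KO libraries, so it was low where FSTL4 was low. Its log2 fold change was -5.23 (SE 0.125, edgeR adjusted p 1.6e-23). SPOCK1, a proteoglycan with a SPARC-type domain, fell from 18.4 to 1.93 CPM (log2 fold change -3.27, SE 0.111). FSTL1 fell less, from 64.6 to 24.7 CPM (log2 fold change -1.39, SE 0.053, edgeR adjusted p 8.2e-19). FSTL3 rose, from 68.3 to 91.4 CPM (log2 fold change 0.42, SE 0.061, edgeR adjusted p 5.3e-06). SPARC and SPOCK3 also rose, from 0.760 to 4.81 CPM (log2 fold change 2.65, SE 0.176) and from 0.222 to 2.67 CPM (log2 fold change 3.54, SE 0.276). SPOCK3 had 16 counts over the CT libraries, and without CT library 1 its log2 fold change was 4.14.

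Of the complexin and SNARE genes around CPLX2, 28 of 34 were tested, of which 14 rose (50%) and 7 fell (25.0%), against 32.8% and 30.0% of all genes tested, with a median log2 fold change of 0.12. The other complexins were hardly read. CPLX3 and CPLX4 had 0 counts in every library, and CPLX1 was at 0.255 in CT and 0.536 CPM in KO (log2 fold change 1.00, SE 0.361, edgeR adjusted p 0.019). The CPLX1 call was lost without CT library 1, CT library 2 or KO library 2 and under DESeq2, with adjusted p from 0.053 to 0.11 in these fits. SNAP25, the neuronal SNARE that complexins bind in the assembled complex, fell from 22.7 to 11.3 CPM (log2 fold change -1.01, SE 0.0696, edgeR adjusted p 5e-13). SYT11, of the synaptotagmin family, fell from 5.79 to 1.08 CPM (-2.38, SE 0.165) and SYP, synaptophysin, from 4.33 to 1.52 CPM (-1.40, SE 0.162), both on the log2 scale. Of the other synaptotagmins tested, SYT1 rose from 28.5 to 41.2 CPM (log2 fold change 0.529, SE 0.0717, edgeR adjusted p 1.5e-06). SYT7 fell (-0.473, SE 0.175, edgeR adjusted p 0.021) and SYT2 did not pass (-0.109, SE 0.267, edgeR adjusted p 0.74). The vesicle priming genes UNC13B and UNC13D rose, each by 1.33 on the log2 scale (SE 0.0465 and 0.0787).

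Most neuronal marker genes tested did not pass the test. Of 25 listed, 12 were tested, of which 2 rose (16.7%) and 3 fell (25.0%), against 32.8% and 30.0% of all genes tested, and 7 did not pass. The median log2 fold change was -0.07, and 7 of the 25 had 0 counts in every library. RBFOX3, the NeuN antigen of mature neurons, fell from 13.0 to 1.30 CPM (log2 fold change -3.20, SE 0.154, edgeR adjusted p 3.2e-13). INA, a neuronal intermediate filament, fell from 43.3 to 24.4 CPM (log2 fold change -0.82, SE 0.0592), and ENO2, neuronal enolase, rose by 0.27 (SE 0.0595, edgeR adjusted p 3.2e-04).

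**Figure D3:**
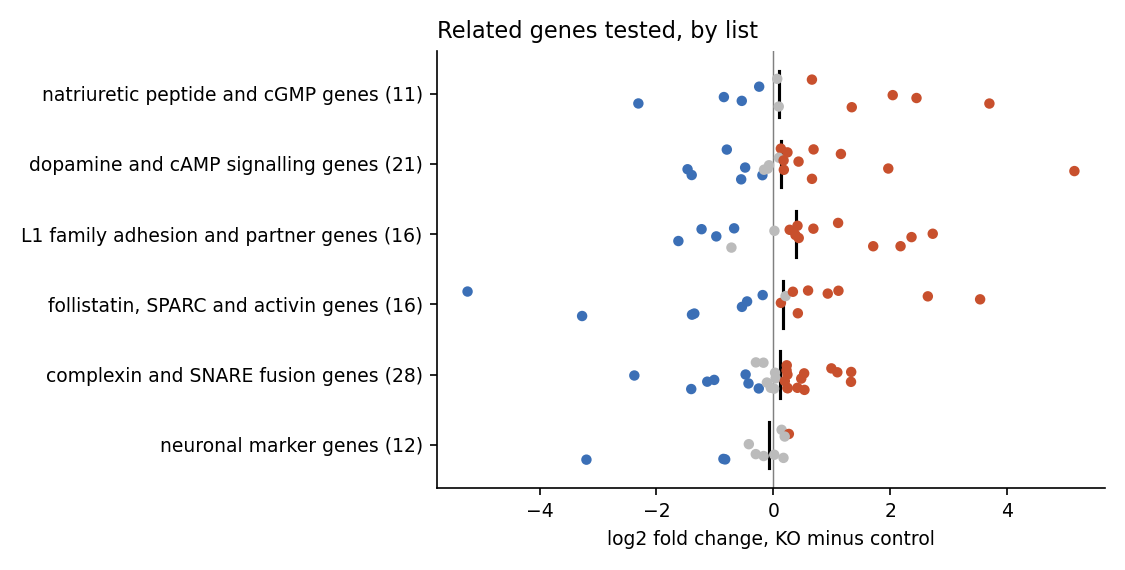
Log2 fold change (KO minus control) of the tested genes in each list, with the number tested in brackets. Orange points were higher and blue points lower in KO at an adjusted p under 0.05, grey points did not pass, and black bars are medians over the genes tested. Genes with 3 counts or fewer over a genotype are not drawn, since their fitted value depends on the added prior count. The medians lie between -0.07 and 0.40.

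Markers of other cell types were at low summed levels in both genotypes. The 6 neuron markers summed to 15.8 to 18.9 CPM in CT and 2.18 to 3.71 CPM in KO libraries, with 2 of 6 at 1 CPM or more and SLC17A6, STMN2 and ELAVL4 at 0 counts. The fibroblast markers summed to 4.81 to 5.02 CPM in CT and 4.98 to 5.46 CPM in KO libraries, with COL1A2 and DCN at 0 and 1 of 7 at 1 CPM or more. Within that sum PDGFRA fell from 1.30 to 0.128 CPM, while COL1A1 rose from 3.10 to 3.83 CPM and COL3A1 from 0.320 to 0.873 CPM. Endothelial markers, 3 of the 4 listed being matched, summed to 0.276 to 0.412 CPM in CT and 3.97 to 5.28 CPM in KO libraries. Most of that sum was CDH5, at 0.289 in CT and 4.53 CPM in KO. Leukocyte markers summed to 0.103 to 0.221 CPM in CT and 0.437 to 0.507 CPM in KO libraries, with CD3E at 0. The part of these markers in the fall of NPR3, NRCAM, DRD1, FSTL4 and CPLX2 was not tested.

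NPR3, DRD1, FSTL4 and CPLX2 lie on chromosome 5 and NRCAM on chromosome 7. Among the other 747 tested genes of chromosome 5, 248 were lower (33.2%) and the median log2 fold change was -0.03. Among the other 771 of chromosome 7, 196 were lower (25.4%) and the median was 0.06. At least 8-fold lower were 5 of those on chromosome 5 and 1 of those on chromosome 7, against 0.371% of all genes tested.

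The nearest 5 tested genes on each side of each gene, by RefSeq order, make 42 distinct neighbours. Of these, 18 were lower (42.9%, against 30.0% of all genes tested), 9 higher (21.4%, against 32.8%) and 15 did not pass, with a median log2 fold change of -0.14. Only ADAMTS12 was at least 8-fold lower. No tested gene placed by RefSeq overlapped any of the 5. RefSeq does list untested genes that overlap NRCAM, FSTL4 and CPLX2, FSTL4-AS1 among them. Of these only MIR1289-2, at FSTL4, was matched to the count table, with 0 counts in both genotypes, so the others could not be read. With 10 genes on each side, 28 of 82 were lower and 20 higher.

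Around NPR3, 6 of 10 neighbours were lower and 2 higher (median -0.29). The adjacent SUB1, a transcriptional coactivator, fell by 0.24 on the log2 scale (SE 0.0462, edgeR adjusted p 4.5e-05), and TARS1, threonyl-tRNA synthetase, by 0.40 (SE 0.0406, edgeR adjusted p 1.4e-09). Both are small beside the fall of NPR3. ADAMTS12, a secreted metalloprotease in place 3 on the other side from SUB1, was at 17.7, 16.1 and 18.7 CPM in CT and 1.70, 1.44 and 1.65 CPM in KO libraries. The fitted log2 fold change was -3.49 (SE 0.112, edgeR adjusted p 1.5e-20). TARS1-DT, a transcript divergent from TARS1, lies with TARS1 between NPR3 and ADAMTS12 and was at 0.902 in CT and 0.610 CPM in KO (log2 fold change -0.65, SE 0.281, edgeR adjusted p 0.046). The TARS1-DT call was lost without CT library 2, CT library 3, KO library 2 or KO library 3, and under DESeq2, library size scaling, no filter and the replicate block, with adjusted p from 0.064 to 0.31 in these fits.

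Around NRCAM, 3 of 10 neighbours were lower, 3 higher and 4 did not pass (median -0.01). PNPLA8, a phospholipase gene adjacent to NRCAM, was at 36.1 in CT and 37.7 CPM in KO (log2 fold change 0.06, SE 0.0571, edgeR adjusted p 0.36). On the other side LAMB4, a laminin chain, was at 0.551 and 0.280 CPM (log2 fold change -1.04, SE 0.35, edgeR adjusted p 0.011). The LAMB4 call was lost without KO library 2 and under DESeq2 (adjusted p 0.11 and 0.092). IMMP2L, of the mitochondrial inner membrane peptidase, rose from 11.5 to 27.5 CPM (log2 fold change 1.25, SE 0.0671, edgeR adjusted p 1.9e-15). None of the 10 fell as NRCAM did.

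DRD1 and CPLX2 are near each other: RefSeq places 7 genes between them, 2 of them protein-coding and tested. These are SFXN1, a mitochondrial serine transporter, and HRH2, a histamine receptor. SFXN1 was at 120.8, 117.0 and 122.7 CPM in CT and 101.4, 94.9 and 97.4 CPM in KO libraries (log2 fold change -0.30, SE 0.0444, edgeR adjusted p 1.4e-06). HRH2 was at 2.42, 2.93 and 2.58 CPM in CT and 1.70, 1.89 and 1.60 CPM in KO libraries (log2 fold change -0.57, SE 0.16, edgeR adjusted p 0.0031). The deep falls of DRD1 and CPLX2 thus stood on either side of a pair of genes with small falls.

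Beyond DRD1, the homeobox gene MSX2 rose from 2.71 to 6.91 CPM (log2 fold change 1.37, SE 0.124, edgeR adjusted p 1.7e-10). Beyond CPLX2, THOC3, of the mRNA export complex THO, fell from 16.2 to 11 CPM (log2 fold change -0.55, SE 0.0792). Leaving each other out, 3 of 9 neighbours of DRD1 and 4 of 9 of CPLX2 were lower, and the medians were -0.08 and -0.30.

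Around FSTL4, 5 of 10 neighbours were lower and 1 higher (median -0.23). The adjacent heat shock gene HSPA4 fell from 407.1 to 326.8 CPM (log2 fold change -0.32, SE 0.0404, edgeR adjusted p 9.8e-08). C5orf15 on the other side was at 84.1 and 84.4 CPM (log2 fold change 0.003, SE 0.0464, edgeR adjusted p 0.96). The lowest value of the 10 was that of LEAP2, an antimicrobial peptide gene, at -0.77 (SE 0.182, edgeR adjusted p 6.2e-04), far from the -5.75 of FSTL4.

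**Figure D4:**
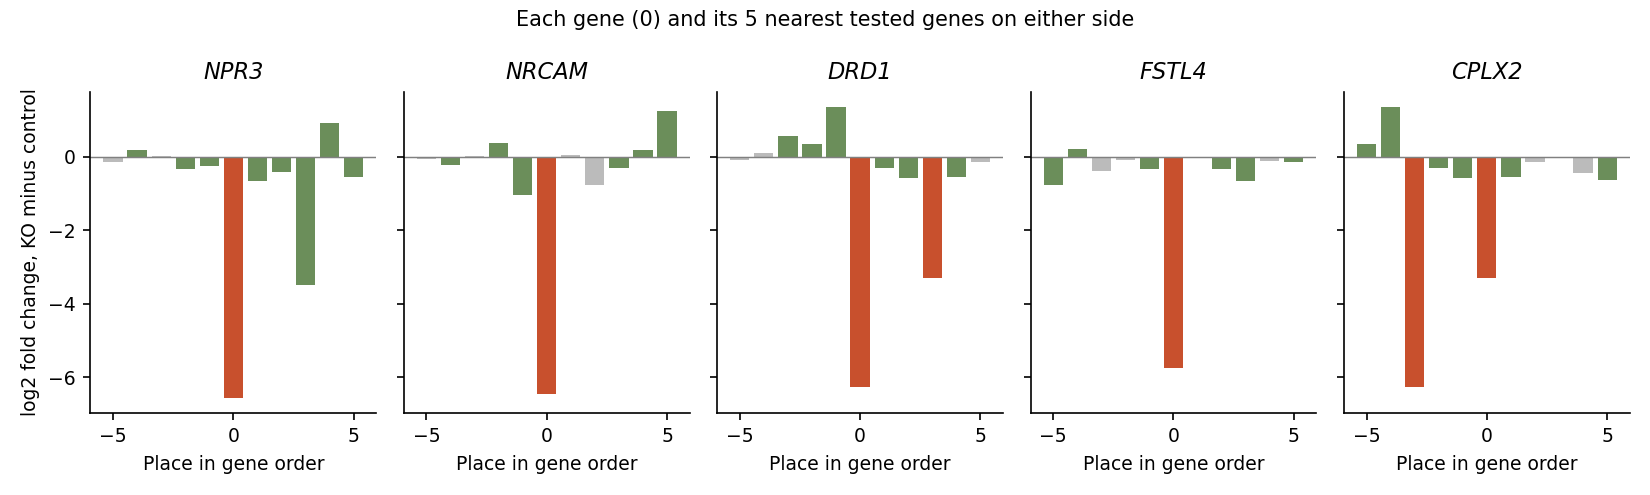
Log2 fold change (KO minus control) of each of the 5 genes (orange, place 0) and of the 5 nearest tested genes on each side in RefSeq order. Green bars passed an adjusted p under 0.05 and grey bars did not. DRD1 and CPLX2 appear in each other's panel (orange, places 3 and -3), and outside the orange bars ADAMTS12 at -3.49 is the one bar past 8-fold.

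The genes whose pattern over the 6 libraries was most like each of the 5 were found by the Euclidean distance of log2 CPM, each gene centred on its own mean, among 17628 candidates. RSPO3, a secreted activator of Wnt signalling, was nearest to NPR3 (0.947), DRD1 (0.377) and FSTL4 (1.28), and UNC5D, a netrin receptor, was nearest to NRCAM (0.799), all distances on the log2 scale. RSPO3 was at 74.1, 60.7 and 67.0 CPM in CT and 1.27, 1.16 and 1.16 CPM in KO libraries.

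MYOCD, the smooth muscle coactivator myocardin, was second for NPR3 (1.02) and DRD1 (0.654). It was at 7.94, 6.35 and 7.59 CPM in CT and had 3 counts over the KO libraries. UNC5D was at 10.1, 9.88 and 8.66 CPM in CT with 6 counts over the KO libraries, and was second for FSTL4 (1.29). CPLX2 had other nearest genes, CACNG7 (0.256), a calcium channel gamma-family subunit that went from 7.42 to 0.621 CPM, and ADAMTS12 (0.307), the neighbour of NPR3. With 2 genotypes, such a distance mostly reads the size of the fall on this scale, and a large fall was what chose the 5 genes. The prior count of 2 in log2 CPM shrinks falls that end at few counts. The fitted log2 fold changes of MYOCD and UNC5D were -7.665 (SE 0.304) and -7.125 (SE 0.248).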

How the data were processed

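RNA-seq of 3 control and 3 SETDB1 knockout A549 libraries was used. The authors deposited whole-number counts per gene. The libraries were made with a stranded kit from total RNA, per the labels' protocols. The submitters' processing notes name STAR 2.6.1c, edgeR 3.30.0 and hg19 without roles; how strand was treated in counting is not given in the sources used here, so reads of overlapping antisense genes may not be separated. Of 62486 rows, 93.8% matched a symbol, and 0 columns went unmapped.

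Differences came from the quasi-likelihood F-test of edgeR 4.0.16 in R 4.3.3, with TMM scaling, genes kept by filterByExpr, robust dispersion, and no term but genotype, and with Benjamini-Hochberg adjustment over 17767 genes at 0.05. CPM used TMM-scaled library sizes, and log2 CPM a prior count of 2. Summaries used Python 3.11.15, pandas 2.3.3, numpy 2.4.6 and scipy 1.17.1. The fit was tested on simulated counts with 200 changed genes, against 11157 genes called in these data. That simulation therefore says nothing on the share of genes called here. Libraries of a genotype differed by more than sampling noise (chi-square per degree of freedom 1.67 to 6.94), so none was merged. CT and KO libraries with the same number correlated in their deviations at 0.11, 0.064 and 0.047, and those with unlike numbers at -0.11 to 0.048. These values are small, and the numbers were not taken as pairs in the main fit.

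The 5 genes and the gene lists were chosen with earlier results of these data known. Genes named were the 5 genes and SETDB1, up to 4 of each list with the largest changes among those with an adjusted p under 0.05 and a mean of at least 1 CPM, neighbours among the nearest 5 on each side, and the 2 genes of most like pattern. NPR2, PRKG1, PRKG2, PDE2A, PDE3A, GUCY1A1, GNAS, MAOB, L1CAM, NFASC, ANK2, NRP2, SEMA3F, FSTL1, FSTL3, CPLX1 and SNAP25 fall outside this rule. ADCY3, ADCY6, ADCY7, ADCY9, ARRB2, PRKAR1A, SYT1, SYT2, SYT7 and UNC13A also fall outside it. So do the counts of ligands, other dopamine receptors and other complexins, and the markers of other cell types given singly. All of these were chosen after their values were seen. Neighbour order, chromosomes and upstream sequences came from RefSeq on GRCh38.p14, which placed 87.8% of tested genes; those positions were not joined to hg19 data. Alternatives were upper quartile and library size scaling, no filter, a replicate block, DESeq2 1.42.0, leaving out each library, and 10 neighbours on each side.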

Additional observations from a re-analysis of the deposited data

How the results depend on the processing

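Of 794 values recomputed under other settings, 762 kept their direction and their side of the threshold or stayed within 1.5 times. The log2 fold changes of NPR3 (-6.60 to -6.52), NRCAM (-6.52 to -6.36) and CPLX2 (-3.35 to -3.26) moved little, and that of FSTL4 ranged from -6.86 to -5.47, both ends set by leaving out a KO library. Genes at least 8-fold lower numbered 208 with no filter on low counts, where more genes were tested. Genes of the natriuretic list that fell numbered 2 under DESeq2 and 2 to 3 with a library left out. With no filter, 4 neuronal markers and 3 neighbours were higher. With 10 neighbours on each side, 28 were lower and 20 higher. C5orf15 turned to -0.032 under upper quartile scaling and ranged from -0.022 to 0.026 with a library left out. Scaling moved the balance of all calls, with 5432 genes higher against 5802 lower for upper quartiles, and 6133 against 4876 for library size alone. DESeq2 called 9759 genes, and 10174 to 11085 were called with a library left out. With the replicate number as a block, 11655 genes were called against 11157. Deviations correlated at 0.047 to 0.11 between CT and KO libraries of the same number. Between those of unlike number they correlated at -0.11 to 0.048, where only CT library 3 with KO library 2 was above 0. The cause of these differences was not tested. Compartment, peak and domain values at the 5 genes, and their alternatives, were not run. Depth limits DRD1 and FSTL4 in KO, where single libraries held 2 to 22 counts.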
